A study of Mus musculus with 9 samples.

Results

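The effect of 1 small interfering RNA (siRNA) against Usp40 on the transcripts of cultured mouse podocytes was examined gene by gene. The comparison set 3 libraries of cells given Usp40 siRNA 2 against 3 libraries of cells given a control siRNA, which is 6 of the 9 libraries of the series. All genes that passed a filter on low counts were included, 11800 of the 25655 genes in the deposited table. The cells were an immortalized mouse podocyte line of wild-type genotype, which all groups shared. They were grown at 33 °C with interferon-γ and 10% fetal bovine serum, and left to differentiate for 10 to 14 days at 37 °C once interferon-γ was withdrawn. They were then transfected with Lipofectamine RNAiMAX and either Silencer Select Negative Control No.1 siRNA, the Silencer Select Usp40 siRNA s105625 (siRNA 1) or s105626 (siRNA 2), and RNA was taken 48 h later. The labels call the 3 libraries of a group biological replicates without stating that each was its own culture. The p-values therefore measure how far these libraries spread, which may be technical. The sources used here do not name the gene that immortalized the line or the number of clones it came from.

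Podocytes are the epithelial cells that wrap the capillaries of the kidney glomerulus. Their foot processes, held by actin and by integrin adhesions to the basement membrane, are joined by the slit diaphragm that filters the blood. Usp40 encodes a ubiquitin-specific protease, an enzyme class that removes ubiquitin from proteins and so can change their stability at the proteasome. An siRNA lowers its target mRNA through an Argonaute protein that carries 1 of its strands. Guide strands of siRNAs and microRNAs are also known to lower other mRNAs whose 3' untranslated regions (3' UTRs) pair with guide bases 2 to 8, the seed.

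Usp40 itself (ENSMUSG00000005501, GRCm39 chromosome 1, 87872841 to 87936273, minus strand) stood at 31.8, 33.8 and 40.9 CPM in the control libraries and 19.2, 17.3 and 21.2 CPM in the siRNA 2 libraries, where CPM is the gene count scaled to the size of its library. Every siRNA 2 library lay below every control library. The transcript fell to 54.2% of the control level (log2 fold change -0.88 with SE 0.112, edgeR adjusted p = 0.00047). With siRNA 1 it stood at 14.7, 15.6 and 16.9 CPM, and the siRNA 2 level was higher than these by 0.29 on the log2 scale, a difference that did not pass the test (edgeR adjusted p = 0.185). Its annotated span overlaps Dgkd on the opposite strand.

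The 9 libraries held 9786270 to 13675426 gene counts each, with 3.07% to 4.33% of them from the mitochondrial genome. Several defining podocyte markers were nearly absent from the line. Over all 9 libraries, Nphs1, the slit diaphragm gene nephrin, had 2 counts, Wt1 had 40, and Tcf21 and Ptpro had 0, which allows up to 3 counts over all libraries. Of 10 podocyte markers 4 could be tested, and their sum with the untested ones ran from 147 to 176 CPM in the controls and from 180.5 to 204 CPM with siRNA 2. Markers of parietal and tubular epithelium were present, at 1624 to 1777 CPM in the controls and 1607 to 1869 CPM with siRNA 2, with Cdh16, a cadherin of renal tubules, and the kidney transcription factor genes Pax2 and Pax8 among them. Immune markers summed to 62.1 to 63.6 CPM in the controls and 51.3 to 56.0 CPM with siRNA 2, with Adgre1 and Itgam at 0. Mesangial markers ran from 42.2 to 50.6 CPM against 51.6 to 60.3 CPM, endothelial markers from 6.08 to 9.51 CPM against 9.68 to 11.1 CPM, and fibroblast markers from 42.2 to 48.0 CPM against 39.1 to 43.6 CPM. The part of these shifts in the results was not tested, and fewer cells of a type and less RNA per cell cannot be told apart in such bulk libraries.

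Against the control, 1913 genes were called with siRNA 2 at an edgeR adjusted p under 0.05, 16.2% of those tested. Of these, 922 rose (7.81% of tested genes) and 991 fell (8.4%). Most changes were small. The median log2 fold change was 0.43 among the genes that rose and -0.41 among those that fell. At least 2-fold changes were seen in 46 genes that rose and 35 that fell. In the authors' deposited table, 2017 of the tested genes had an adjusted p-value under 0.05, 1684 of them called here, and all 1913 calls had the same direction there once its control-over-siRNA sign was turned. In 4556 genes, 38.6% of those tested, the 3 siRNA 2 libraries did not overlap the 3 controls.

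Single libraries weighed on these counts. Leaving out control libraries 1, 2 and 3 in turn gave 1417, 1001 and 2608 calls. Leaving out siRNA 2 libraries 1, 2 and 3 gave 862, 947 and 636. In all 6 of these fits 196 genes rose and 357 fell, and the genes described below were among them unless stated. With siRNA 2 library 3 left out 248 rose and 388 fell. In what follows, a pair of values in brackets after a gene is its log2 fold change and its edgeR adjusted p, and a single value there is its log2 fold change.

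In a direct test between the siRNAs, 795 genes were called (6.74% of those tested), 501 of them lower with siRNA 2 (4.25%) and 294 higher (2.49%). Of the 991 genes that fell against the control, 407 were also lower than with siRNA 1 and 1 was higher. Of the 922 that rose, 142 were also higher than with siRNA 1 and 2 were lower. Among the larger changes, of at least 0.5 on the log2 scale, 217 of 300 falls (2.54% of tested genes fell so far) and 75 of 336 rises (2.85%) differed from siRNA 1 in the same direction. Whether falls and rises differ in that share was not tested, and the share was not computed with single libraries left out. The number of calls in the direct test did move with single libraries. It was 361 with siRNA 2 library 3 left out, 403 and 436 without siRNA 2 libraries 2 and 1, and 1335 without control library 1.

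**Figure D1:**
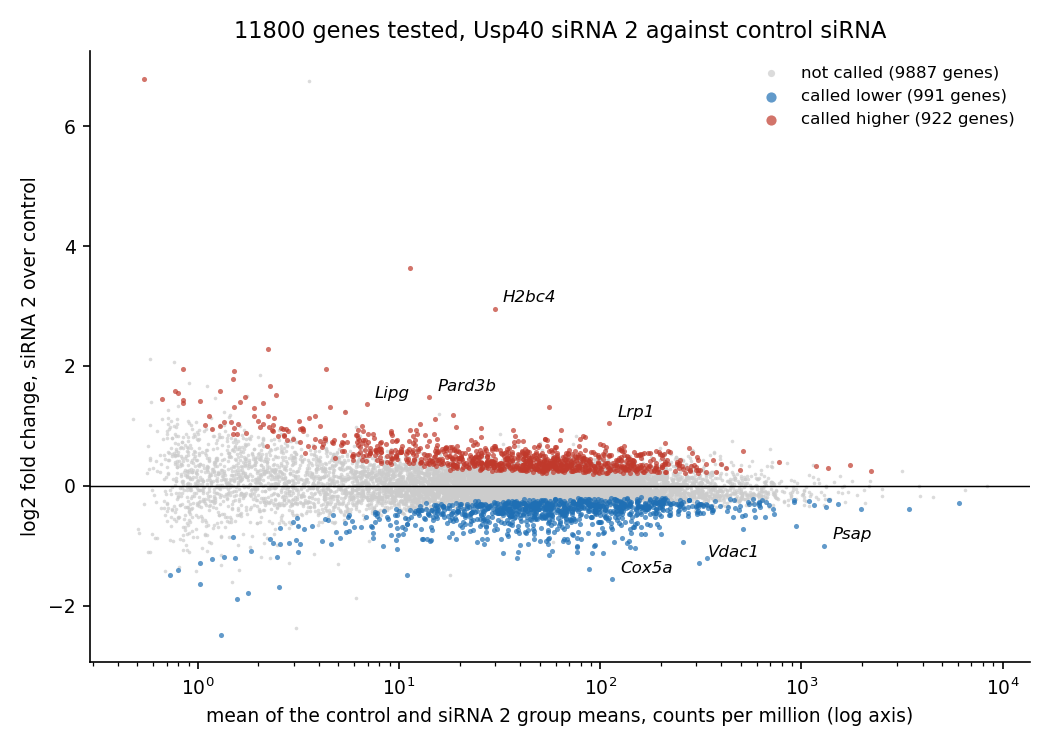
Log2 fold change of siRNA 2 over control (vertical axis) against the mean level in CPM (horizontal axis, log scale) for each of the 11800 genes tested, with 991 called lower in blue and 922 called higher in red. Cox5a, Vdac1 and Psap lie among the falls, and H2bc4 rose by 2.96.

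Gene length moved with the fold changes. Across the tested genes, which are not independent replicates, the log2 fold change had a Spearman correlation of 0.384 with gene length, as derived from the deposited RPKM values. Over 5 classes of equal size by length, the median fold change was -0.15 in the shortest genes and 0.16 in the longest, and 11.4% of the shortest genes fell against 5.85% of the longest. Genes that rose had a median length of 5470.4 bases and genes that fell 3291 bases, against 3801 bases for all tested genes. Single libraries differed in the same way. The Spearman correlation with length of a library's log2 ratio to the mean of the (other) controls was -0.515 in control library 1, against 0.252 and 0.418 in control libraries 2 and 3 and 0.342, 0.281 and 0.434 in the siRNA 2 libraries. The part of this trend in the results was not tested, but all results were fitted again with the trend of each library on length removed by offsets. With these length offsets 1135 genes rose (9.62%) and 1222 fell (10.4%), 792 and 831 of them in common with the fit above. Values from that fit are given below for some genes and lists.

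**Figure D2:**
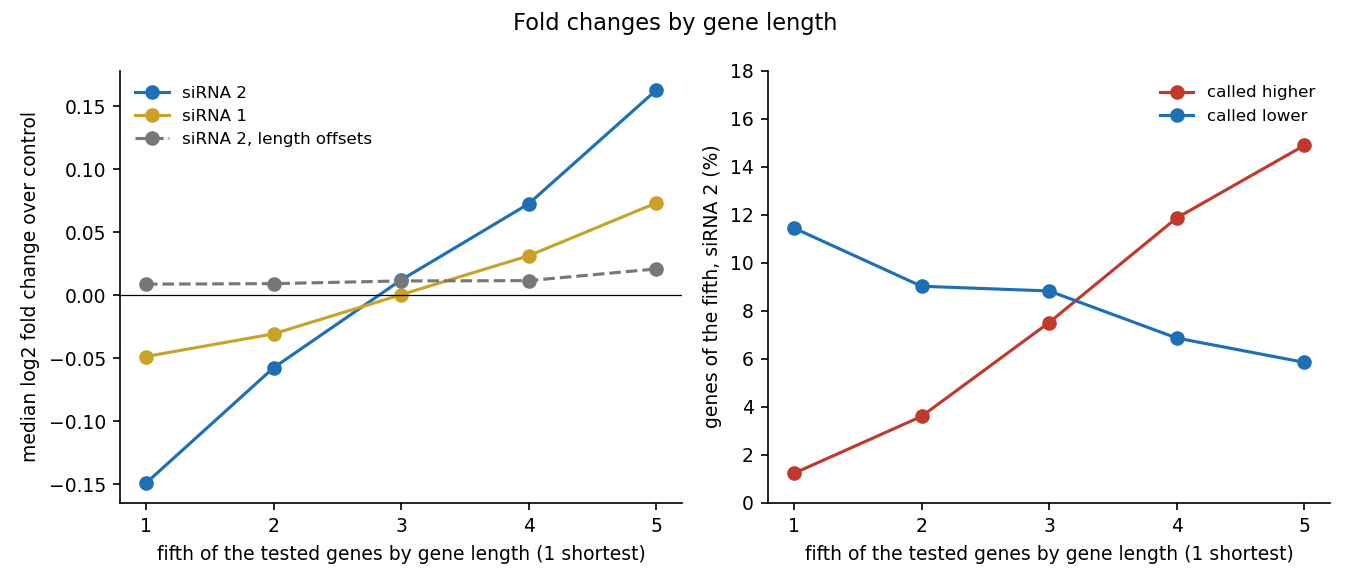
Median log2 fold change over control (left) and percent of genes called with siRNA 2 (right) in 5 classes of the tested genes by gene length. The siRNA 2 medians climbed from -0.15 to 0.16 and lay between 0.01 and 0.02 with length offsets; siRNA 1 ran from -0.05 to 0.07.

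The 12 largest falls and rises described below were chosen among genes whose groups do not overlap, so that separation is given as a description. Cox5a, a nuclear subunit of cytochrome c oxidase, stood at 202, 158 and 150.2 CPM in the control libraries and 65.5, 55.6 and 52.5 CPM in the siRNA 2 libraries. It fell by the most among annotated genes of at least 5 CPM (log2 fold change -1.56 with SE 0.125, edgeR adjusted p = 4.07e-05). Rcn2, which encodes reticulocalbin 2, a calcium-binding protein of the endoplasmic reticulum, stood at 133, 135 and 113 CPM in the control libraries and 57.4, 44.2 and 43.9 CPM in the siRNA 2 libraries. Vdac1, the main channel of the outer mitochondrial membrane, stood at 490.5, 411 and 420.3 CPM in the control libraries and 200.1, 169.8 and 169.7 CPM in the siRNA 2 libraries. In all 3 genes every siRNA 2 library lay far below every control library. Rcn2 fell by 1.40 (SE 0.12, edgeR adjusted p = 5.8e-05) and Vdac1 by 1.29 (SE 0.0968, edgeR adjusted p = 3.1e-05) on the log2 scale. With siRNA 1 the log2 fold changes of Cox5a, Rcn2 and Vdac1 were -0.24, -0.18 and -0.08, and each was lower with siRNA 2 than with siRNA 1 (edgeR adjusted p = 0.000131, 0.000133 and 7.31e-05).

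Ywhah, which encodes the eta form of the 14-3-3 adaptor proteins, stood at 526, 435 and 452 CPM in the control libraries and 224, 197 and 194 CPM in the siRNA 2 libraries. Its groups were far apart, and it fell by 1.20 on the log2 scale (SE 0.0885, edgeR adjusted p = 3.1e-05), against -0.01 with siRNA 1. Pdcl3, a phosducin-like co-chaperone of protein folding, stood at 89.6, 73.8 and 67.5 CPM in the control libraries and 38.01, 34.5 and 31.98 CPM in the siRNA 2 libraries. Ero1a, the oxidase that drives disulfide formation in the endoplasmic reticulum, stood at 121, 127 and 126 CPM in the control libraries and 62.3, 50.8 and 59.4 CPM in the siRNA 2 libraries. Tmx1, a thioredoxin-related protein of the same membrane, stood at 162, 140.0 and 125 CPM in the control libraries and 67.7, 63.7 and 63.8 CPM in the siRNA 2 libraries. The siRNA 2 libraries of all 3 lay below the controls. Their log2 fold changes were -1.15 for Pdcl3 (edgeR adjusted p = 0.000108), -1.12 for Ero1a (3.1e-05) and -1.13 for Tmx1 (6.85e-05). Ero1a stood at 93.5, 94.2 and 92.1 CPM with siRNA 1, between the other groups, and Pdcl3 at 77.7, 65.2 and 75.8 CPM, overlapping the controls. Both were lower with siRNA 2 than with siRNA 1 (edgeR adjusted p = 0.000294 and 0.000206).

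The remaining 5 of the 12 largest falls lay in Tmem64, Ppbp, Cyb5r4, Dnaja4 and Dpysl2. Tmem64, a membrane protein of calcium handling, stood at 48.1, 45.6 and 40.7 CPM in the control libraries and 21.4, 19.4 and 21.2 CPM in the siRNA 2 libraries and fell with a log2 fold change of -1.12 (edgeR adjusted p = 6.85e-05). With siRNA 1 it stood at 26.7, 33.5 and 32.1 CPM and was also called below the control (-0.54, edgeR adjusted p = 0.0184). It was lower with siRNA 2 than with siRNA 1 (edgeR adjusted p = 0.00583). Ppbp, a CXC chemokine best known from platelets, stood at 127, 90.8 and 96.1 CPM in the control libraries and 46.5, 53.4 and 46.3 CPM in the siRNA 2 libraries with a log2 fold change of -1.10 (edgeR adjusted p = 0.000181). Cyb5r4, a cytochrome b5 reductase, stood at 54.3, 53.5 and 51.3 CPM in the control libraries and 27.2, 25.2 and 21.9 CPM in the siRNA 2 libraries with -1.10 (edgeR adjusted p = 3.1e-05). The siRNA 2 libraries of these 3 genes clustered closely, far below the controls. Dnaja4, an HSP40 co-chaperone, stood at 12.9, 13.4 and 13.2 CPM in the control libraries and 7.06, 5.21 and 6.83 CPM in the siRNA 2 libraries with -1.06 (edgeR adjusted p = 0.000277), but it overlaps Wdr61 on the opposite strand and its value is uncertain. Dpysl2, a regulator of microtubules in neurons, stood at 77.1, 51.1 and 33.6 CPM in the control libraries and 24.6, 24.3 and 21.1 CPM in the siRNA 2 libraries. Its controls spread more than 2-fold, and its fall of 1.21 on the log2 scale (SE 0.314, edgeR adjusted p = 0.034) did not hold with most single libraries removed, with adjusted p-values of 0.119, 0.0564, 0.0732, 0.0727 and 0.108 with control libraries 1 and 2 and siRNA 2 libraries 1, 2 and 3 left out in turn. Among genes of at least 100 CPM, Slbp, the protein that binds the stem-loop of histone mRNAs, stood at 219.7, 208 and 171 CPM in the control libraries and 106, 95.4 and 89.5 CPM in the siRNA 2 libraries and fell by 1.05 on the log2 scale (edgeR adjusted p = 8.65e-05), against -0.05 with siRNA 1.

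**Figure D3:**
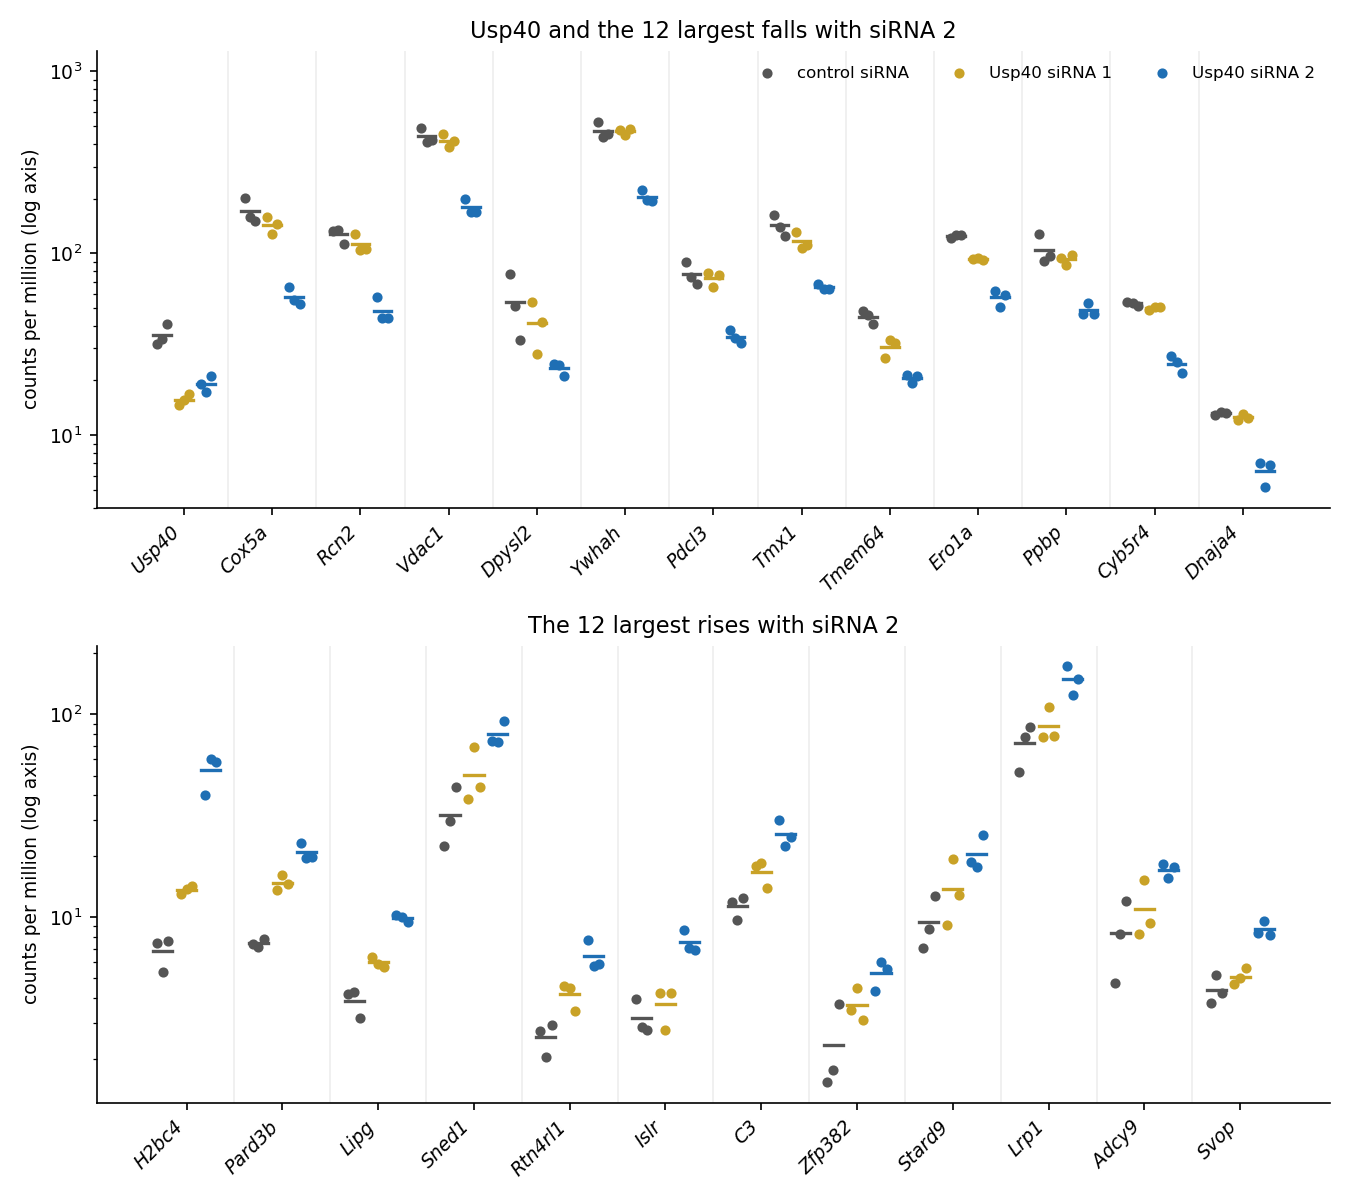
Level of Usp40 and the 12 largest falls (top) and of the 12 largest rises (bottom) in CPM on a log axis, 1 point for each library and a bar at the mean of each group of 3. The siRNA 2 points of Cox5a lie between 52.5 and 65.5 and those of its controls between 150.2 and 202; H2bc4 runs from 5.37 to 7.64 in the controls and from 40.1 to 60.5 with siRNA 2.

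Many of these falls shared a stretch of letters in the 3' UTR. All 7-letter words held in the 3' UTR of at least 200 tested genes, 14155 words in all, were ranked by the median log2 fold change of the genes holding them, read on the sense strand of the GENCODE release M39 canonical transcripts. Of the 11800 tested genes 11662 had a 3' UTR there, with a median fold change of -0.01. The lowest medians belonged to GGACTTA (901 genes, -0.114) and GACTTAA (1316 genes, -0.112), which overlap by 6 letters and join to the 8-letter word GGACTTAA. The next word, TGACTTA, shares 6 letters with them and stood at -0.063 over 1451 genes. The same pair ranked lowest in the direct comparison of siRNA 2 with siRNA 1, at -0.112 and -0.095. That comparison uses the same siRNA 2 libraries, so its ranking is not a separate result. With siRNA 1 against the control the lowest word was another, GTTATAC, at -0.087 over 594 genes. At the other end, the highest medians with siRNA 2 belonged to AGACGTA (209 genes, 0.164) and TGACGTA (246 genes, 0.152). These lay further from the median of all genes than the lowest words, and also ranked highest with siRNA 1 (0.117 and 0.098). With length offsets they stood at 0.102 and 0.075, against -0.158 for GGACTTA and -0.152 for GACTTAA. All these words were picked for their place in the ranking, so the medians describe the ranking and are not tested.

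The windows below show the 8-letter word, in capitals, in the 3' UTRs of the 6 genes among the 12 largest falls that hold it, 30 bases each, 5' to 3' on the gene's strand, and in Usp40, where it lies in the coding sequence.
Cox5a: gggcttcctaaGGACTTAActgctattgct
Rcn2: aaccttcacaaGGACTTAAacctcacatag
Vdac1: ccagtcattcaGGACTTAAttcttccttgt
Ywhah: ataaatgttttGGACTTAAaagagtaaata
Pdcl3: gaaaggaatgtGGACTTAAaaaatataatg
Ero1a: agttttcttggGGACTTAAaagaactaaat
Usp40: gaaagcgtgtgGGACTTAAcgtttgataaa

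In GRCm39 these lie at chr9:57439567-57439596 (Cox5a), chr9:55965945-55965974 (Rcn2), chr11:52279896-52279925 (Vdac1), chr5:33185260-33185289 (Ywhah) and chr1:39035665-39035694 (Pdcl3) on the plus strand and chr14:45521736-45521765 (Ero1a) on the minus strand. The letters on either side of the word differ between the genes. The word of Cox5a starts 24 bases into a 3' UTR of 155 bases, that of Rcn2 461 into 872 and that of Ywhah 732 into 771. Usp40 holds it once, at position 1665 of 3708 coding bases, and 0 times in its 3' UTR. Tmx1, Tmem64, Dnaja4, Dpysl2 and Slbp hold 1 of the 7-letter words only, and Ppbp and Cyb5r4 hold neither in the 3' UTR used here.

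The words were chosen for low fold changes in this same comparison. The shares and medians of their holders with siRNA 2 are therefore partly set by that choice and are given as a description. Genes holding the 8-letter word in the 3' UTR were few, and they were a larger share, though a minority, of the stronger falls. The word was in 337 of the 11662 3' UTRs (2.89%), in 11.4% of the genes that fell, in 21.5% of those that fell by at least 0.5 on the log2 scale and in 27.3% of those that fell by at least 0.8. It was in 1.31% of the genes that rose. At least 1 of the 7-letter words was in 15.3% of all 3' UTRs and in 42.2% of the falls. It was in 61.4% of the falls of at least 0.5 and in 60.2% of those of at least 0.8. Read the other way, 112 of the 337 holders fell (33.2%) and 12 rose (3.56%). Among the 9878 genes with neither word 5.75% fell and 8.21% rose. The median log2 fold change was -0.15 for holders of the 8-letter word, -0.08 for the 1447 genes with a 7-letter word only and 0.01 for genes with neither. With length offsets the holders' median was -0.23, and with siRNA 1 it was 0.00. The 5 genes with 2 or more copies of the 8-letter word had a median of 0.03 with siRNA 2, or -0.29 with length offsets, and 1 of them fell.

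**Figure D4:**
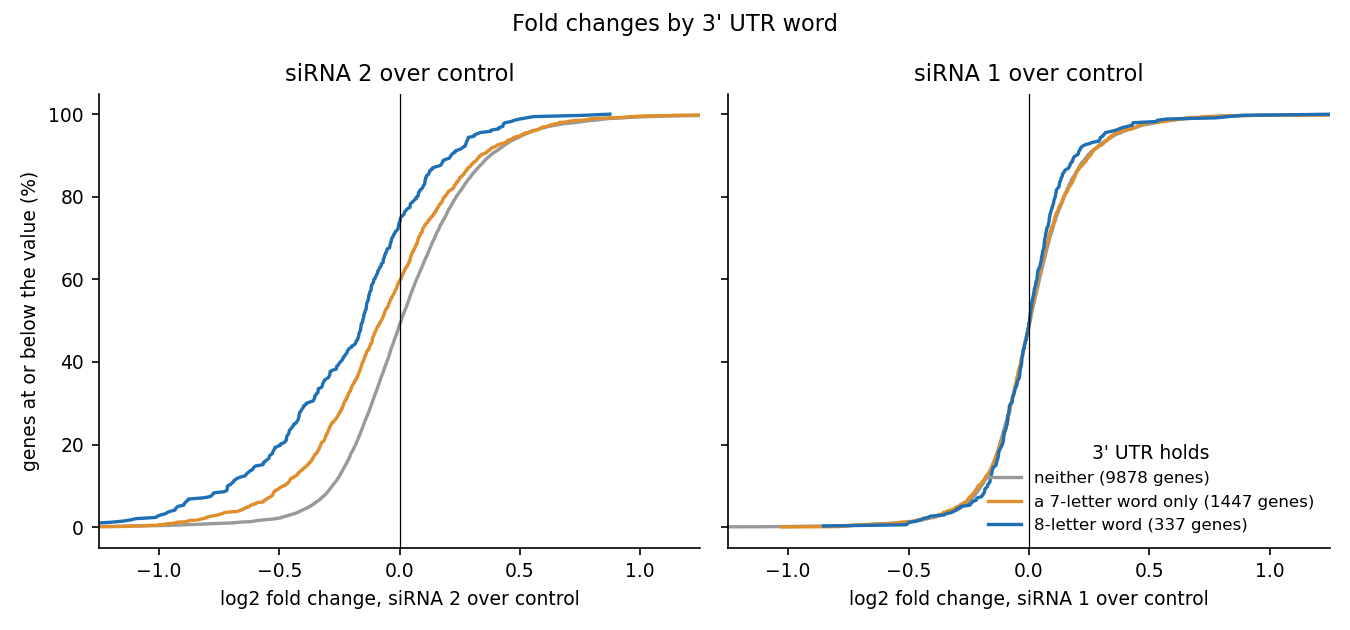
Cumulative percent of genes (vertical axis) by log2 fold change over control (horizontal axis) for siRNA 2 (left) and siRNA 1 (right), with genes split by whether the 3' UTR holds the 8-letter word (337 genes), a 7-letter word only (1447) or neither (9878). The curves separate with siRNA 2, at medians of -0.15, -0.08 and 0.01, and lie together with siRNA 1. The words were chosen on the siRNA 2 fold changes and not on those of siRNA 1, so the left and right panels are not like for like.

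The word was chosen on the mean of the siRNA 2 libraries, so its values by library describe their spread only. Holders lay below genes with neither word by 0.169, 0.193 and 0.171 (log2, medians) in the 3 siRNA 2 libraries, each set against the mean of the controls. The corresponding differences were -0.035, 0.023 and -0.013 in the siRNA 1 libraries and -0.039, 0.025 and 0.0003 in the controls, each set against the mean of the other controls. Long 3' UTRs hold more words of any kind, so the genes were also split by 3' UTR length at 823 and 2145 bases. From short to long 3' UTRs the holders' medians were -0.46, -0.18 and -0.14, against -0.06, 0.03 and 0.08 for genes with neither word. In the short class 18 of 30 holders fell (60.0%), against 7.04% of genes with neither word. In the middle and long classes 36.8% and 28.6% of holders fell, against 5.65% and 4.10%. The reverse complement TTAAGTCC, in the 3' UTRs of 299 genes (2.56%), went with a median of 0.05, and 6.69% of these genes fell. The word in the coding sequence alone, in 157 genes, went with a median of 0.03, and 20 of them fell (12.7%, against 5.75% of genes with neither word in the 3' UTR) while 10 rose (6.37%).

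Words were also ranked on parts of the genome. Words ranked on the even-numbered autosomes alone gave the same pair first. On the other chromosomes the holders' medians were then -0.110 and -0.109, against -0.003 and -0.002 for genes without the word. The reverse choice gave the same pair, with -0.119 and -0.114 on the even-numbered autosomes, against 0.007 and 0.013. All these values come from the same libraries. Of 1738 mature mouse microRNAs in RefSeq, 0 carry UAAGUCC at positions 2 to 8, the seed that would pair with the first of these words. Other positions were not searched, and a part of microRNAs in these falls was not tested. No source used here prints the siRNA sequences, so whether the words pair with a strand of siRNA 2 was not tested. Without the 1784 genes holding a 7-letter word and the genes with no annotated 3' UTR, 811 genes rose and 568 fell. The words were picked for the low fold changes of their holders, so leaving these out removes falls by that choice.

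The word is also held by called genes outside the 12 largest falls. Zmat3, an RNA-binding p53 target, stood at 184, 189 and 163 CPM in the control libraries and 104, 84.7 and 89.03 CPM in the siRNA 2 libraries and fell by 0.95 on the log2 scale (edgeR adjusted p = 6.85e-05). Mcm4, a subunit of the replicative helicase, stood at 349.9, 346 and 325 CPM in the control libraries and 202, 159.8 and 174 CPM in the siRNA 2 libraries and fell by 0.93 (6.58e-05). Itgav, the integrin αV chain, stood at 181, 192 and 176 CPM in the control libraries and 112, 83.2 and 94.3 CPM in the siRNA 2 libraries and fell by 0.93 (0.000148). In each of the 3 genes the siRNA 2 libraries were separate from the controls, and the log2 fold change with siRNA 1 was between -0.08 and 0.05. Birc5, the survivin gene of mitosis and cell survival, stood at 99.9, 106 and 92.3 CPM in the control libraries and 53.7, 55.8 and 52.6 CPM in the siRNA 2 libraries (-0.88, edgeR adjusted p = 6.85e-05). Slc40a1, the iron exporter ferroportin, stood at 37.8, 33.5 and 31.5 CPM in the control libraries and 20.5, 19.6 and 19.8 CPM in the siRNA 2 libraries (-0.78, edgeR adjusted p = 0.000205). Tagln2, an actin-binding transgelin, stood at 204, 195 and 193 CPM in the control libraries and 141, 140.2 and 129.6 CPM in the siRNA 2 libraries (-0.53, edgeR adjusted p = 0.000604). All 6 were lower with siRNA 2 than with siRNA 1, at edgeR adjusted p-values of 0.000134, 8.65e-05, 0.000147, 0.00141, 7.31e-05 and 0.000496 in that order.

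The largest rise among annotated genes of at least 5 CPM was in H2bc4 (ENSMUSG00000018102, GRCm39 chromosome 13), a histone H2B gene. It stood at 7.45, 5.37 and 7.64 CPM in the control libraries and 40.1, 60.5 and 58.3 CPM in the siRNA 2 libraries, and at 12.99, 13.8 and 14.2 CPM with siRNA 1. All siRNA 2 libraries lay above all others. It rose 7.76-fold (log2 fold change 2.96 with SE 0.17, edgeR adjusted p = 9.74e-06) and was higher than with siRNA 1 by 1.96 on the log2 scale (edgeR adjusted p = 7.31e-05). Histone mRNAs of S phase normally end in a stem-loop bound by SLBP and carry no poly(A) tail, and these libraries were selected for poly(A). Its reads can be shared with near-identical histone genes, so its value is uncertain. Of 21 replication-dependent histone genes tested, 4 rose (19.05%, against 7.81% of all tested genes) and 0 fell (against 8.4%). H1f2, a linker histone, went from 44.1 ± 4.21 to 84.1 ± 6.43 CPM (SD, n = 3) and rose by 0.93 on the log2 scale (edgeR adjusted p = 0.000151), also above siRNA 1 (edgeR adjusted p = 0.000756). The rises of H2bc9 (1.43) and H2aw (0.42) did not hold in every fit, with adjusted p-values of up to 0.114 (H2bc9; control libraries 1 and 2 and siRNA 2 libraries 1, 2 and 3) and 0.0995 (H2aw; control library 1 and siRNA 2 libraries 1, 2 and 3) when the libraries in brackets were left out in turn. The median over the 21 genes was 0.14, and 0.39 with length offsets. Among 14 genes of histone mRNA processing Slbp and Lsm1 (-0.35) fell, 14.3% of them, and Casp8ap2 (0.26) rose, 7.14%. Of these calls that of Slbp alone held in all 6 fits that left out a library. The adjusted p of Lsm1 was 0.116, 0.0958, 0.117 and 0.145 with control library 1 and siRNA 2 libraries 1, 2 and 3 left out in turn, and that of Casp8ap2 was 0.0793, 0.0599, 0.0608, 0.108, 0.0872 and 0.117 with control libraries 1, 2 and 3 and siRNA 2 libraries 1, 2 and 3 left out in turn.

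Pard3b, a scaffold of the PAR polarity complex, stood at 7.37, 7.13 and 7.802 CPM in the control libraries and 23.3, 19.6 and 19.8 CPM in the siRNA 2 libraries. It stood at 13.6, 16.2 and 14.5 CPM with siRNA 1, between the other groups, and was called above both the control (log2 fold change 1.48 with SE 0.113, edgeR adjusted p = 3.1e-05) and siRNA 1 (edgeR adjusted p = 0.0131). Lipg, the endothelial lipase, stood at 4.197, 4.26 and 3.17 CPM in the control libraries and 10.3, 10.03 and 9.48 CPM in the siRNA 2 libraries. C3, the central complement component, stood at 11.9, 9.72 and 12.4 CPM in the control libraries and 30.04, 22.6 and 24.9 CPM in the siRNA 2 libraries. All siRNA 2 libraries of both lay above the controls, with log2 fold changes of 1.36 (edgeR adjusted p = 0.000129) and 1.18 (0.000373), and both were above siRNA 1 (edgeR adjusted p = 0.0057 and 0.0177). Rtn4rl1, a Nogo receptor homologue, went from 2.57 ± 0.47 to 6.47 ± 1.12 CPM (SD, n = 3; log2 fold change 1.31, edgeR adjusted p = 0.00158). A mean of at least 5 CPM in either group was enough for the ranking of the 12 largest changes. Lipg and Rtn4rl1, for example, lay below it in the controls and entered through the siRNA 2 group alone, so the filter favoured such rises. Islr (1.23, 0.00227) and Svop (0.99, 0.00156), the latter encoding a synaptic vesicle transporter-like protein, rose as well, and their values are uncertain because they overlap Islr2 on the same strand and Usp30 on the opposite strand. The matrix gene Sned1 (1.32), the zinc-finger gene Zfp382 (1.16), the kinesin-like START protein gene Stard9 (1.12) and the adenylate cyclase gene Adcy9 (1.03) complete the 12 largest rises. Sned1 lost its call at an adjusted p of 0.0644 with control library 1 left out, and Zfp382 at 0.0786, 0.0698 and 0.0782 with control library 2 and siRNA 2 libraries 2 and 3 left out in turn. Stard9 lost it at 0.11, 0.0645 and 0.0917 with control libraries 1 and 2 and siRNA 2 library 3 left out in turn, and Adcy9 at 0.0793, 0.0828, 0.0859, 0.0617 and 0.103 with control libraries 1 and 2 and siRNA 2 libraries 1, 2 and 3 left out in turn. Sned1 and Stard9 also overlap Mterf4 and Cdan1 on the opposite strand.

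Genes with a mean of at least 100 CPM in either group were also ranked, and of the 8 largest rises there only Sulf2 and Wdfy3 reached it in the controls, the others through the siRNA 2 group alone. Lrp1, a large endocytic receptor of the LDL receptor family, stood at 52.2, 77.6 and 86.6 CPM in the control libraries and 172, 125 and 149.9 CPM in the siRNA 2 libraries. It rose by 1.05 on the log2 scale (edgeR adjusted p = 0.00516), by 0.78 with length offsets, and was above siRNA 1 (edgeR adjusted p = 0.0341). Msrb3, a methionine sulfoxide reductase, stood at 60.7, 57.5 and 57.7 CPM in the control libraries and 95.8, 99.02 and 108 CPM in the siRNA 2 libraries and at 85.9, 93.3 and 86.2 CPM with siRNA 1. Its rise of 0.79 (SE 0.0727, edgeR adjusted p = 6.85e-05) was not called different from that with siRNA 1 (edgeR adjusted p = 0.14). Ptprf, a receptor tyrosine phosphatase of cell junctions, rose by 0.70 (edgeR adjusted p = 0.00646). Sulf2, a heparan sulfate endosulfatase, rose by 0.66 (0.000745) and overlaps Ncoa3 on the opposite strand. In the laminin-binding integrin gene Itga6 (0.67) the call was lost at an adjusted p of 0.052, 0.0582 and 0.0746 with control library 2 and siRNA 2 libraries 1 and 3 left out in turn. The rises of Pcdhgc3 (0.83), Ankhd1 (0.81) and Wdfy3 (0.71) were likewise lost, at adjusted p-values of up to 0.133 (Pcdhgc3; control libraries 1 and 2 and siRNA 2 libraries 1, 2 and 3), 0.238 (Ankhd1; control libraries 1 and 2 and siRNA 2 libraries 1, 2 and 3) and 0.142 (Wdfy3; control libraries 1 and 2 and siRNA 2 libraries 1 and 3) when the libraries in brackets were left out in turn.

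The pathways of ubiquitin and the proteasome, in which USP40 acts, were examined next. Of 48 genes of proteasome subunits and activators, 24 fell and 0 rose, while 8.4% of all tested genes fell and 7.81% rose. The median log2 fold change of the 48 genes was -0.26, against -0.01 over all tested genes. The falls were small. Psmb5, a catalytic subunit of the core particle, stood at 155, 129 and 127 CPM in the control libraries and 98.2, 104 and 96.8 CPM in the siRNA 2 libraries and fell by 0.46 on the log2 scale (edgeR adjusted p = 0.00762). It was the only member called in all 6 fits that left out a library. Leaving out control libraries 1, 2 and 3 in turn gave 14, 11 and 30 falls, and leaving out siRNA 2 libraries 1, 2 and 3 gave 4, 12 and 1. These genes are short, with a median length of 1683 bases, and with length offsets their median was -0.14 and 17 fell while 2 rose. None of the 24 was called different from siRNA 1, against which the members' median was -0.15, and 2 of the 24 hold a 7-letter word.

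Of 39 ubiquitin genes and ubiquitin-conjugating enzymes, 8 fell (20.5%, against 8.4% of all tested genes) and 0 rose, at a median of -0.16. Ube2d1, which passes ubiquitin to many E3 ligases, stood at 47.2, 42.7 and 41.3 CPM in the control libraries and 26.9, 26.8 and 25.1 CPM in the siRNA 2 libraries (-0.74, edgeR adjusted p = 0.000196). Its relative Ube2d3 stood at 627, 497 and 489.8 CPM in the control libraries and 369, 386 and 370.5 CPM in the siRNA 2 libraries (-0.52, 0.00405). Ube2j1, a conjugating enzyme of the endoplasmic reticulum, stood at 93.8, 101 and 102 CPM in the control libraries and 71.6, 70.9 and 67.6 CPM in the siRNA 2 libraries (-0.50, 0.0012). These 3 held in all 6 fits, were lower than with siRNA 1 (edgeR adjusted p = 0.00084, 0.0265 and 0.00132) and each hold a 7-letter word, as do 5 of the 8 that fell. Of 46 ubiquitin-specific proteases other than Usp40, 5 rose (10.9%, against 7.81% of all tested genes) and 1 fell (2.17%), with a median of 0.08. Usp25 went from 92.7 ± 7.09 to 119 ± 1.45 CPM (SD, n = 3; 0.36, edgeR adjusted p = 0.00618) and the mitochondrial enzyme gene Usp30 from 49.3 ± 2.06 to 67.6 ± 1.62 CPM (0.46, 0.00109), but Usp30 overlaps Svop and Alkbh2 on the opposite strand. Neither was called different from siRNA 1 (edgeR adjusted p = 0.0966 and 0.367).

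Of 31 tested genes of the slit diaphragm and podocyte identity 4 rose and 4 fell (12.9% each, against 7.81% and 8.4% of all tested genes), with a median of 0.11. Besides Pard3b, Efnb1, the ephrin B1 gene, went from 38.3 ± 2.33 to 51.1 ± 2.503 CPM (SD, n = 3; 0.41, edgeR adjusted p = 0.00511), and Foxc1, a transcription factor of kidney and eye development, from 96.5 ± 11.3 to 62.03 ± 0.948 CPM (-0.64, 0.00137). Neither was called different from siRNA 1 (edgeR adjusted p = 0.318 and 0.155). Cd2ap, an adaptor that ties the slit diaphragm to actin and a holder of the 8-letter word, stood at 369, 459 and 404 CPM in the control libraries and 325, 293 and 311 CPM in the siRNA 2 libraries. It fell by 0.41 on the log2 scale (edgeR adjusted p = 0.0125), and its adjusted p was 0.0572 and 0.0559 with siRNA 2 libraries 2 and 3 left out in turn. It was lower than with siRNA 1 (edgeR adjusted p = 0.0289). The atypical protein kinase C gene Prkci (-0.33), its partner Pard6b (-0.29) and the podocyte myosin gene Myo1e (0.33) were also called, and none of these 3 held in every fit. Their adjusted p-values were up to 0.0782 (Prkci; control library 2 and siRNA 2 libraries 2 and 3), 0.133 (Pard6b; control libraries 2 and 3 and siRNA 2 libraries 1, 2 and 3) and 0.133 (Myo1e; control libraries 1 and 2 and siRNA 2 libraries 1, 2 and 3) when the libraries in brackets were left out in turn.

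Of 59 genes of actin dynamics and contractile fibres 13 fell (22.03%) and 2 rose (3.39%), at a median of -0.12. Of all tested genes 8.4% fell and 7.81% rose. Among the actin genes 8 of the falls and 0 of the rises held in all 6 fits. Rhoc, a small GTPase of stress fibres and migration, stood at 273, 255 and 239.9 CPM in the control libraries and 162, 143 and 136 CPM in the siRNA 2 libraries. Pfn2, a profilin that feeds actin monomers to filaments, stood at 210.2, 216 and 182 CPM in the control libraries and 119, 116 and 114 CPM in the siRNA 2 libraries. Both groups were separate, with falls of 0.80 (edgeR adjusted p = 0.000194) and 0.80 (0.000126) on the log2 scale, and both hold a 7-letter word. Wasf1, a subunit of the WAVE complex that drives branched actin, holds neither word and went from 15.9 ± 1.08 to 10.9 ± 0.221 CPM (SD, n = 3; -0.55, edgeR adjusted p = 0.00382). All 3 were lower than with siRNA 1 (edgeR adjusted p = 0.000206, 0.00176 and 0.0265). Of the 13 falls 7 hold a word.

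Among 41 genes of integrins and focal adhesions, 5 rose and 5 fell (12.2% each), with a median of 0.08. Of all tested genes 7.81% rose and 8.4% fell. Besides Itgav, Fermt2, the kindlin that activates integrins, stood at 241, 224 and 229.8 CPM in the control libraries and 164, 138 and 147 CPM in the siRNA 2 libraries and fell by 0.63 on the log2 scale (edgeR adjusted p = 0.000315), below siRNA 1 (edgeR adjusted p = 0.000756). Crk, a signalling adaptor of focal adhesions, stood at 141, 144 and 137 CPM in the control libraries and 203, 204 and 209 CPM in the siRNA 2 libraries and rose by 0.55 (edgeR adjusted p = 0.000181). It stood at 197, 205 and 195 CPM with siRNA 1 and was not called different from it (edgeR adjusted p = 0.662). The 5 genes that fell each hold a word. Only 2 of the rises and 3 of the falls held in all 6 fits. Among 60 genes of extracellular matrix and its enzymes 10 rose (16.7%) and 6 fell (10.0%), at a median of 0.09. Ccn2, the connective tissue growth factor gene and a YAP target, stood at 123, 125 and 116 CPM in the control libraries and 92.1, 79.6 and 67.8 CPM in the siRNA 2 libraries and fell by 0.61 on the log2 scale (edgeR adjusted p = 0.00217). It holds neither word and was lower than with siRNA 1 (edgeR adjusted p = 0.0044). Col6a2, a collagen VI chain, stood at 15.7, 13.2 and 15.04 CPM in the control libraries and 26.6, 18.9 and 22.6 CPM in the siRNA 2 libraries and rose by 0.62 (edgeR adjusted p = 0.00913). In all, 3 of the 10 rises and 2 of the 6 falls held in every fit. Of 27 YAP and TEAD targets 8 fell (29.6%) and 1 rose (3.70%), yet the median was 0.03. Lats2, a kinase that restrains YAP, was among the falls (-0.53, edgeR adjusted p = 0.00481), and Ccn2 and Lats2 were the 2 of the 8 that held in every fit.

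**Figure D5:**
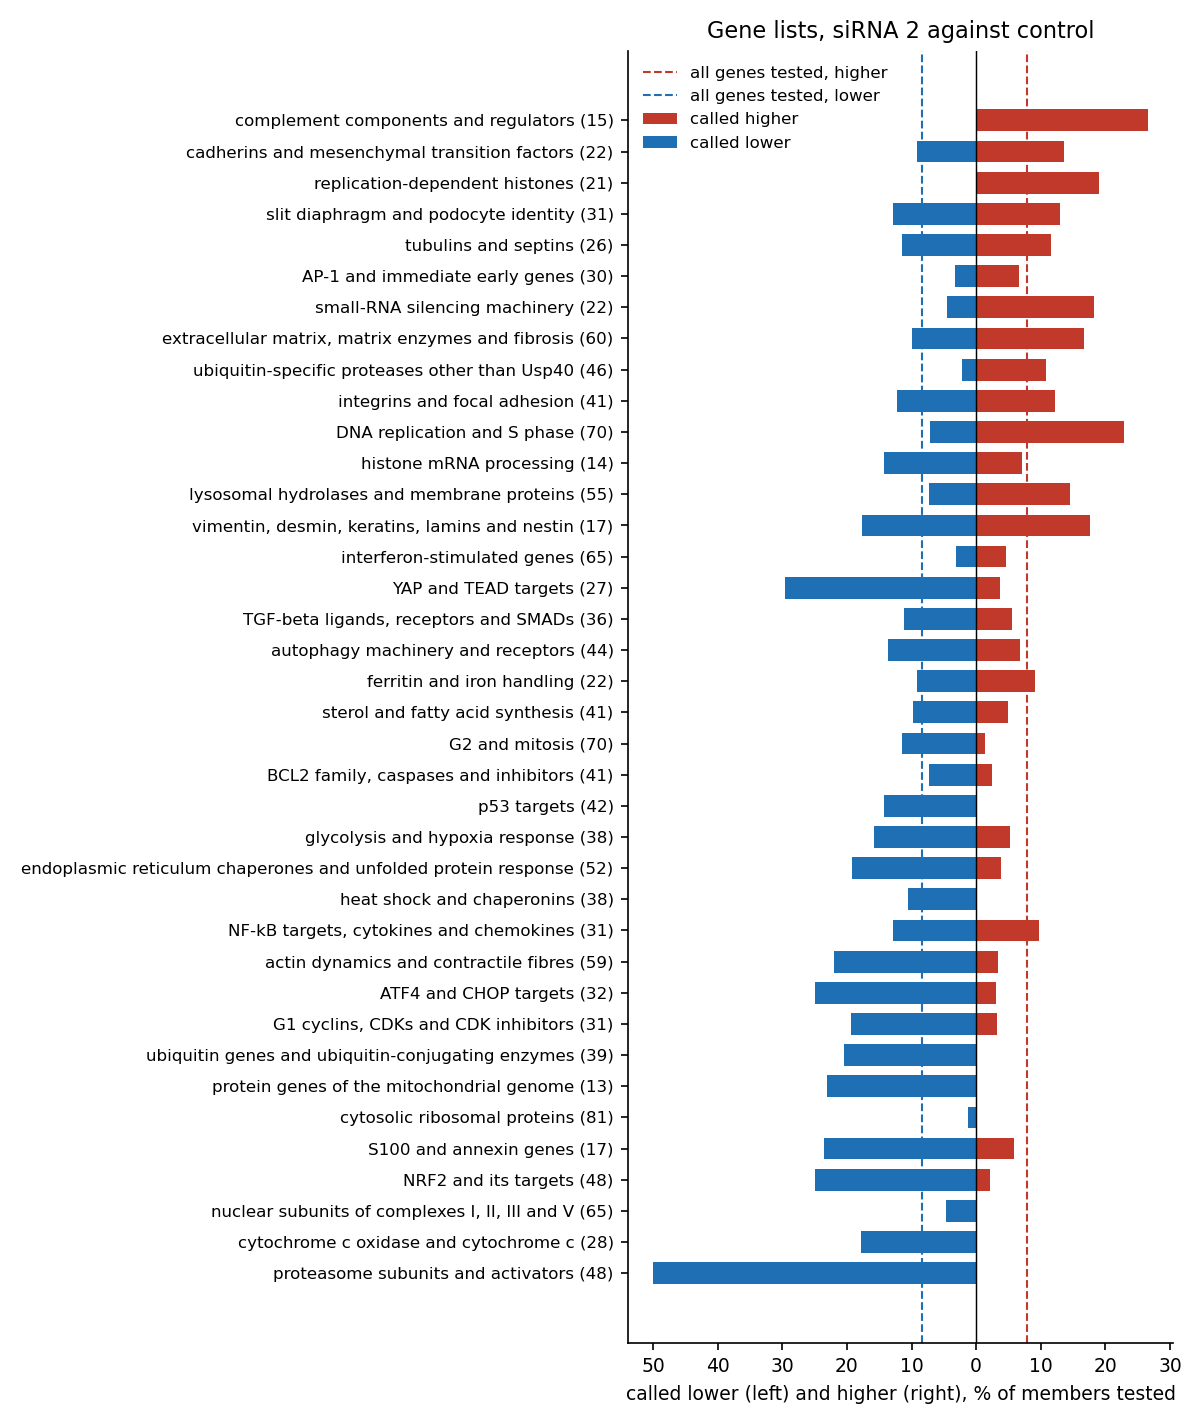
Percent of tested members called lower (blue, to the left) and higher (red, to the right) with siRNA 2 in each gene list with at least 12 tested members, whose number is in brackets, ordered by median log2 fold change. Dashed lines mark all tested genes, 8.4% lower and 7.81% higher; proteasome genes reach furthest to the left, with 24 of 48 lower.

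Of 70 genes of DNA replication and S phase 16 rose (22.9%, against 7.81% of all tested genes) and 5 fell (7.14%, against 8.4%), with a median of 0.06. None of the 16 rises held in all 6 fits, and there were 6, 6 and 14 when control libraries 1, 2 and 3 were left out in turn, and 1, 2 and 1 for siRNA 2 libraries 1, 2 and 3. With length offsets it was 26. Pole, the catalytic subunit of DNA polymerase epsilon, had the largest of these rises (0.57, edgeR adjusted p = 0.0208), with an adjusted p of 0.0733, 0.0582, 0.0523 and 0.0851 with control library 2 and siRNA 2 libraries 1, 2 and 3 left out in turn. Of the falls, Slbp, Mcm4 and Pole3 held in every fit. Pole3, a histone-fold subunit of the same polymerase, stood at 69.4, 65.1 and 65.02 CPM in the control libraries and 45.1, 44.9 and 40.4 CPM in the siRNA 2 libraries (-0.62, edgeR adjusted p = 0.000359), lower than with siRNA 1 (edgeR adjusted p = 0.000206). Of 70 genes of G2 and mitosis 8 fell (11.4%) and 1 rose (1.43%), at a median of -0.05. Besides Birc5, the mitotic kinase gene Pbk (-0.56, edgeR adjusted p = 0.00118) and Ect2, the exchange factor of cytokinesis (-0.36, 0.00573), fell in every fit. Both hold a 7-letter word, and neither was called different from siRNA 1 (edgeR adjusted p = 0.0921 and 0.06). Of 42 p53 targets 6 fell (14.3%) and 0 rose, at a median of -0.05, and 5 of the 6 hold a word. Zmat3, Ak1 (-0.55, edgeR adjusted p = 0.00309) and the ectodysplasin receptor gene Eda2r (-0.50, 0.00217) held in every fit and were lower than with siRNA 1.

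Mitochondrial and ribosomal genes showed low medians and no rise. Of 28 genes of cytochrome c oxidase and cytochrome c 5 fell (17.9%, against 8.4% of all tested genes), at a median of -0.25. Besides Cox5a these included Coa3, an assembly factor (-0.74, edgeR adjusted p = 0.00109), Cox15, an enzyme of heme A synthesis (-0.56, 0.000381), and the cytochrome c gene Cycs (-0.53, 0.00811). Coa3 stood at 81.03, 63.9 and 62.4 CPM in the control libraries and 44.6, 40.1 and 39.7 CPM in the siRNA 2 libraries. Cox15 overlaps Entpd7 and Cutc on the opposite strand. Among 65 nuclear genes of complexes I, II, III and V 3 fell (4.62%), and among 81 cytosolic ribosomal protein genes 1 fell (1.23%), at medians of -0.23 and -0.20. Among 13 protein genes of the mitochondrial genome 3 fell (23.1%), at a median of -0.18. None of these 7 held in all 6 fits. Genes of these 4 lists are short, with median lengths of 845 to 1365 bases. With length offsets the medians of the 4 groups were -0.08, -0.04, 0.00 and 0.05. The fall of Cox5a was 1.31 on the log2 scale with length offsets and that of Coa3 0.53.

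In 4 lists of stress genes more falls than rises were called, read against the 8.4% of all tested genes that fell and the 7.81% that rose. Of 52 genes of endoplasmic reticulum chaperones and the unfolded protein response 10 fell (19.2%) and 2 rose (3.85%), with a median of -0.09. In every fit 5 of the falls held. Besides Ero1a, Dnajc3, an HSP40 co-chaperone that inhibits the kinase PERK, stood at 83.7, 89.7 and 81.8 CPM in the control libraries and 59.7, 57.8 and 54.6 CPM in the siRNA 2 libraries (-0.57, edgeR adjusted p = 0.000378). Sil1, an exchange factor of the chaperone BiP, stood at 33.5, 35.4 and 33.6 CPM in the control libraries and 27.2, 24.4 and 20.1 CPM in the siRNA 2 libraries (-0.52, 0.00628). Both hold a word and were lower than with siRNA 1 (edgeR adjusted p = 0.00158 and 0.00522). Of 32 targets of ATF4 and CHOP 8 fell and 1 rose, at a median of -0.13. Nupr1, a stress-induced chromatin protein, fell by 0.62 (edgeR adjusted p = 0.00234) and Psph, the last enzyme of serine synthesis, by 0.48 (0.00595). They were the 2 that held in every fit, hold no word, and were not called different from siRNA 1 (edgeR adjusted p = 0.0604 and 0.235). Psph overlaps Cct6a on the opposite strand. Of 48 genes of NRF2 and its targets 12 fell and 1 rose, at a median of -0.21, and 4 of the falls held in every fit. Ugdh, which makes UDP-glucuronate, stood at 211, 239 and 205 CPM in the control libraries and 155, 163 and 158 CPM in the siRNA 2 libraries (-0.46, edgeR adjusted p = 0.00299). The glutathione transferase gene Gsta4 stood at 133, 149.8 and 135 CPM in the control libraries and 87.2, 107 and 96.5 CPM in the siRNA 2 libraries (-0.52, 0.00327). The gene Gsta2 (-0.93, 0.00939) is a close copy of others of its family, and its reads may be split. All 3 were lower than with siRNA 1 (edgeR adjusted p = 0.00447, 0.000562 and 0.00226), and 0 of the 12 falls hold a word. Of 38 genes of heat shock and chaperonins 4 fell (10.5%, near the share of all tested genes) and 0 rose, at a median of -0.11. Dnajb6, a suppressor of protein aggregation, went from 163 ± 13.7 to 118 ± 4.65 CPM (SD, n = 3; -0.47, edgeR adjusted p = 0.00224).

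Of 55 tested lysosomal genes 8 rose (14.5%, against 7.81% of all tested genes) and 4 fell (7.27%, against 8.4%), at a median of 0.05. Psap, the precursor of the saposins that help to degrade sphingolipids, stood at 1609.5, 1865 and 1702 CPM in the control libraries and 1027, 796 and 764 CPM in the siRNA 2 libraries. The groups were wide apart, with a fall of 1.00 on the log2 scale (edgeR adjusted p = 0.000157), while siRNA 1 stood at 1784, 1714 and 1786 CPM (edgeR adjusted p = 0.000163 for the difference). Neu1, a sialidase, fell by 0.50 (edgeR adjusted p = 0.00299) and Gla, the α-galactosidase, by 0.42 (0.00352). Arsa, the arylsulfatase that degrades sulfatide, rose by 0.42 (0.00935) and was the 1 rise that held in every fit. In place of 8 rises there were 7, 1 and 9 when control libraries 1, 2 and 3 were left out in turn, and 1, 3 and 2 for siRNA 2 libraries 1, 2 and 3. Psap and Neu1 hold a 7-letter word, and Gla and Arsa hold neither. Of 44 autophagy genes 6 fell (13.6%) and 3 rose (6.82%), at a median of 0.00. The fall of Becn1, a subunit of the lipid kinase complex that starts autophagy, was the 1 call that held in every fit (-0.36, edgeR adjusted p = 0.00618).

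Of 15 tested complement components and regulators 4 rose (26.7%, against 7.81% of all tested genes) and 0 fell, at a median of 0.34, and 3 of the rises held in every fit. Besides C3, Clu, the chaperone clusterin, stood at 131, 112 and 112 CPM in the control libraries and 182, 175 and 168 CPM in the siRNA 2 libraries (0.56, edgeR adjusted p = 0.00199) and was above siRNA 1 (edgeR adjusted p = 0.02). Masp1, a protease of the lectin pathway, stood at 19.7, 18.6 and 19.2 CPM in the control libraries and 25.8, 26.99 and 27.3 CPM in the siRNA 2 libraries (0.48, 0.00382) and overlaps Rtp4 on the opposite strand. Of 31 NF-kB targets, cytokines and chemokines 4 fell (12.9%) and 3 rose (9.68%), C3 among them, at a median of -0.12. Ccl2, a chemokine for monocytes, stood at 58.5, 42.9 and 43.2 CPM in the control libraries and 28.6, 30.2 and 31.9 CPM in the siRNA 2 libraries (-0.67, edgeR adjusted p = 0.00341). Cxcl1, a chemokine for neutrophils, stood at 31.9, 23.4 and 23.7 CPM in the control libraries and 13.5, 17.03 and 14.9 CPM in the siRNA 2 libraries (-0.79, 0.0036). Both chemokines were separate from the controls and lower than with siRNA 1 (edgeR adjusted p = 0.00102 and 0.00408), and neither holds a word. Of 65 interferon-stimulated genes 3 rose (4.62%) and 2 fell (3.08%), at a median of 0.05, and none of the 5 held in every fit. Of the immune markers Ptprc, the leukocyte antigen CD45 gene, fell from 2.16 ± 0.225 to 0.91 ± 0.193 CPM (SD, n = 3; -1.21, edgeR adjusted p = 0.00701). Csf1r, a macrophage growth factor receptor gene, was also called lower (-0.34, 0.0262), but at adjusted p-values of 0.0844, 0.0514, 0.0669 and 0.125 with control library 2 and siRNA 2 libraries 1, 2 and 3 left out in turn it was not. Cd68, a macrophage marker, had a log2 fold change of 0.48 and was not called (edgeR adjusted p = 0.0974).

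Of 22 genes of small-RNA silencing, the machinery that siRNAs use, 4 rose (18.2%, against 7.81% of all tested genes) and 1 fell (4.55%, against 8.4%), at a median of 0.09. Tnrc6a, the GW182 protein that recruits deadenylases to Argonaute, stood at 68.2, 72.8 and 76.9 CPM in the control libraries and 102, 107 and 111 CPM in the siRNA 2 libraries and at 98.3, 132 and 111 CPM with siRNA 1. It rose by 0.56 on the log2 scale (edgeR adjusted p = 0.00384), was the 1 call of the list that held in every fit, and was not called different from siRNA 1 (edgeR adjusted p = 0.629).

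The remaining lists are read against the 7.81% of all tested genes that rose and the 8.4% that fell. Of 31 genes of the G1 phase 1 rose (3.23%) and 6 fell (19.4%), at a median of -0.15. Of 36 genes of TGF-β and BMP signalling 2 rose (5.56%) and 4 fell (11.1%), at 0.02. Of 41 genes of sterol and lipid synthesis 2 rose (4.88%) and 4 fell (9.76%), at -0.01. Of 22 genes of epithelial-mesenchymal transition 3 rose (13.6%) and 2 fell (9.09%), at 0.15. In these 4 lists no call held in every fit. Of 38 genes of hypoxia and glycolysis 2 rose (5.26%) and 6 fell (15.8%), and of 41 apoptosis regulators 1 rose (2.44%) and 3 fell (7.32%). Of 26 genes of tubulins and septins 3 rose and 3 fell (11.5% each). Of 17 genes of annexins and S100 proteins 1 rose (5.88%) and 4 fell (23.5%), at a median of -0.20, or 0.01 with length offsets. Among members that held in every fit, ceruloplasmin (Cp), a ferroxidase, stood at 104, 104 and 109 CPM in the control libraries and 160.1, 157 and 158 CPM in the siRNA 2 libraries (0.59, edgeR adjusted p = 0.000148), with Hps3 on the opposite strand. Klf4, a transcription factor of epithelial differentiation, stood at 17.3, 14.3 and 16.3 CPM in the control libraries and 21.1, 25.1 and 24.7 CPM in the siRNA 2 libraries (0.57, 0.0036). Epas1, which encodes HIF-2α, rose from 1.52 ± 0.17 to 3.01 ± 0.194 CPM (SD, n = 3; 0.97, 0.00843). Anxa1, a phospholipid-binding annexin, fell from 362 ± 29.5 to 264 ± 9.49 CPM (-0.46, 0.0034). Klf4, Cp and Anxa1 differed from siRNA 1 in the direction of their change (edgeR adjusted p = 0.00665, 0.0122 and 0.00277), and for Epas1 that test did not pass (edgeR adjusted p = 0.26).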

How the data were processed

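Poly(A)-selected RNA of cultured mouse podocytes was sequenced as paired 36 bp reads, per the labels' protocols. The authors made 1 deposited table with CLC Genomics Workbench 23.02, with GRCm39 and DESeq2 also named in the submitters' processing notes. In it the authors deposited raw gene counts, summing to 9786270 to 13675426 in each of 9 libraries. The authors also deposited RPKM and TPM values made from these counts. A deposited signal column, headed CPM by the authors, does not sum to a fixed total and was not used, so every CPM value given here was computed from the counts. The authors' deposited columns of log2 fold changes, signed linear fold changes and p-values compare groups, and those of control over siRNA 2 were used only for the comparison with the authors' calls. No source used here gives the strand setting of the counting, so overlapping genes on opposite strands are uncertain. There were no molecular identifiers.

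From the counts, edgeR 4.0.16 (R 4.3.3) kept 11800 of 25655 genes with filterByExpr, scaled by TMM and fitted all 9 libraries by group with the robust quasi-likelihood test. Calls are at a Benjamini-Hochberg adjusted p under 0.05 over all tested genes, and the SE is the log2 fold change over the square root of F. The biological coefficient of variation was 8.56%. Gene length was taken from the ratio of counts to RPKM, and length offsets are a loess curve (span 0.5) of each library's deviation on log length. No 2 replicates of a group agreed within sampling noise. Correlations between same-numbered libraries ran from -0.117 to 0.40. They were not set beside those of different-numbered libraries, so whether replicate numbers pair the libraries was not settled.

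Named genes are Usp40, the 12 largest rises and falls and, at 100 CPM or more, the 8 largest each way, among called genes with at least 5 CPM in a group and no overlap of the groups. Up to 4 called members each way were eligible in each of 43 gene lists, and 31 unannotated genes among the largest were not described. The lists, the comparison and the genes were chosen with earlier results of these data known, and the 3' UTR words after seeing these fold changes. The words were read from the GENCODE M39 canonical transcripts on GRCm39. Alternatives were DESeq2 1.42.0, limma-voom (limma 3.58.1), other scalings and filters, 6 libraries only, a replicate block, length offsets and each control and siRNA 2 library left out in turn, while no siRNA 1 library was left out. Values of some genes are not reported here.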

Additional observations from a re-analysis of the deposited data

How the results depend on the processing

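The fall of Usp40 held under all 16 alternatives. Of 3487 values of the other 218 named genes under these alternatives, 0 changed direction and 629 lost the call. The count of 1913 calls lay between 1712 and 2689 with other tests, scalings, filters and offsets. Leaving out 1 control or siRNA 2 library gave 636 to 2608 calls, 248 to 1279 of them higher and 388 to 1329 lower, and for siRNA 2 against siRNA 1 it gave 361 to 1335 calls, 111 to 558 higher and 250 to 777 lower. Of the calls 48.2% were higher, against 37.2% without siRNA 2 replicate 1. With length offsets siRNA 2 against siRNA 1 gave 1213 calls, 471 higher, and with length offsets and the replicate block 1471 calls, 606 higher and 865 lower. The cause was not tested. Genes with neither word, an alternative chosen after seeing the data, gave 811 higher (8.21%) and 568 lower (5.75%). Over all tested genes there were 922 (7.81%) and 991 (8.4%). The words were picked for low medians in this same comparison, so a smaller share of falls without their holders was set by that choice. Whether same-numbered libraries deviate together was not settled, with correlations from -0.117 to 0.40, and the replicate block gave 2295 calls. Of the counts of list members called each way, 983 stayed within 1.5 times the value reported under these alternatives and 393 did not. At these depths genes removed by the filter were not tested.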
